A study of Mus musculus with 8 samples.

Results

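The genes described here are the Wnt ligands, their Frizzled and LRP receptors, their secreted inhibitors and the R-spondins, with the feedback gene Axin2. Members were chosen by symbol, and 46 of the 53801 genes in the table met the rule: 19 Wnt ligands, 10 Frizzled receptors, Lrp5 and Lrp6, 5 genes of the secreted Frizzled-related protein (SFRP) family (Frzb included), Wif1, 4 Dickkopf genes, 4 R-spondins and Axin2. RNA had been sequenced from stromal cells of MO5 melanomas, tumors of B16 mouse melanoma cells carrying the ovalbumin gene, grown under the skin of adult ADAM12-GFP mice on a C57Bl/6 background. These mice carry a bacterial artificial chromosome with Cre and GFP under the Adam12 promoter, so GFP reports the transgene and not the Adam12 protein itself. Live cells negative for CD45 and CD31 and positive for PDPN and PDGFRα were sorted by GFP into ADAM12+ (GFP+) and ADAM12- (GFP-) cells, 4 libraries each, with no treatment in either group. The study counts mice as its replicates, which makes the 4 libraries of a group separate mice. Neither the labels nor the study's methods say whether a GFP+ and a GFP- library of the same number came from the same mouse.

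Wnt proteins are lipid-modified secreted signals that bind Frizzled receptors. With the co-receptors LRP5 and LRP6 they stabilise β-catenin, which then acts with TCF/LEF factors in the nucleus, and through other receptors they steer cell polarity and movement without β-catenin. SFRP proteins and WIF1 bind Wnt proteins outside the cell, DKK1 and DKK2 act on LRP5 and LRP6, and R-spondins keep Frizzled receptors on the cell surface. Fibroblasts of the skin are a known source of both Wnt ligands and SFRP proteins.

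Of the 46 genes, 31 averaged 10 or more raw counts over the 8 libraries and are reported, 13 had fewer counts and 2 (Wnt8a and Dkk4) had none. Among the 31, 6 rose in GFP+ cells (Sfrp1, Sfrp4, Fzd1, Fzd2, Fzd4 and Lrp6) and 5 fell (Wnt2, Wnt10b, Frzb, Dkk3 and Axin2) at a DESeq2 adjusted p under 0.05. That is 35.5% of the reported members. Over the 15004 genes of the table that reached this mean, 9.44% were called, 4.73% higher and 4.71% lower; over the 15283 genes with an adjusted p the share was 9.42% (4.66% higher, 4.76% lower). The 4 GFP+ libraries did not overlap the 4 GFP- libraries for 12 of the 31 genes (38.7%), against 12.5% of genes that reached it (6.5% with GFP+ higher and 6% lower). The median log2 fold change was 0.17 over the 31 genes and 0.01 over all genes at that mean. The edgeR quasi-likelihood test, which called 5.13% of the genes it tested (2.84% higher, 2.29% lower), called 7 of the 11 (Sfrp1, Sfrp4, Fzd1, Fzd4, Lrp6, Wnt2 and Dkk3). The count of lower genes was 3 in place of 5 when any single GFP- library, or GFP+ replicate 3, was left out.

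Libraries held between 883144 reads (GFP- replicate 3) and 31666734 reads (GFP+ replicate 4). Raw counts were divided by each library's size factor to give normalised read counts, and 1 read of GFP- replicate 3 was worth 10.99 of these units, against 0.336 to 1.39 in the other libraries. Genes of other cells differed between the groups. All 8 melanocyte markers were lower in GFP+ cells by DESeq2, with summed normalised counts of 24080 to 70810 in GFP- and 4505 to 11210 in GFP+ libraries, and 6 of 8 stromal markers (among them Pdgfra and Pdpn) were higher, with sums of 253600 to 559300 and 666200 to 764400. Neither list had a marker at 0. The sums overlapped for Schwann cell (3 of 7 lower, 428.5 to 1294 and 310.4 to 455), endothelial (1 of 7 lower, 1492 to 2923 and 1892 to 3549), pericyte (1 of 6 higher and 1 lower, 509.5 to 945 and 680.4 to 1384), leukocyte (0 of 8 called, 612 to 4362 and 590 to 3305) and keratinocyte markers (0 of 7 called, 0 to 205 and 16.8 to 38.9). In the leukocyte and keratinocyte lists edgeR called 0 too, and of the markers averaging 10 or more raw counts 0 had an unadjusted p under 0.05. Krt5 was at 0 in every GFP+ library and Foxd3 in every GFP- library. The part of these other cells in the Wnt gene results was not tested. In such bulk samples fewer cells of a type and less RNA per cell cannot be told apart.

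The promoters of 4 called members are shown because they stand on both sides of the comparison. Axin2 and Wnt10b fell, and Fzd1 and Fzd4 rose. Each sequence is the 250 bases before the RefSeq start site (GRCm38.p6), written in the direction of transcription, with CpG dinucleotides in capitals.
Axin2 (chr11:108920099-108920348, plus strand): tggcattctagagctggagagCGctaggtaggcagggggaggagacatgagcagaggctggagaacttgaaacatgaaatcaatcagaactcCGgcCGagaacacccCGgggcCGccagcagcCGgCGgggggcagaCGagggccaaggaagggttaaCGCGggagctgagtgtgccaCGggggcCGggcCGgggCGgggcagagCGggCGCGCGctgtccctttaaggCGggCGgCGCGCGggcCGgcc
Wnt10b (chr15:98778151-98778400, minus strand): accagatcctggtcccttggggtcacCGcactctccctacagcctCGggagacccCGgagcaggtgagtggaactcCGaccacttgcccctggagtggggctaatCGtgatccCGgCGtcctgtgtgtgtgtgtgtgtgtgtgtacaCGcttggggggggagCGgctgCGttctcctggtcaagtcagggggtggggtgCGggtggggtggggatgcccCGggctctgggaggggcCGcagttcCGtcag
Fzd1 (chr5:4758217-4758466, minus strand): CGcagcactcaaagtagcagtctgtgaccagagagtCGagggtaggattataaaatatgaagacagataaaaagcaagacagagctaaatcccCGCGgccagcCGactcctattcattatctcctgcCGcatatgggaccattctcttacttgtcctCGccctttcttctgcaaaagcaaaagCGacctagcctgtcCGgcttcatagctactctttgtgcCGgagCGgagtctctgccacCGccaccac
Fzd4 (chr7:89404116-89404365, plus strand): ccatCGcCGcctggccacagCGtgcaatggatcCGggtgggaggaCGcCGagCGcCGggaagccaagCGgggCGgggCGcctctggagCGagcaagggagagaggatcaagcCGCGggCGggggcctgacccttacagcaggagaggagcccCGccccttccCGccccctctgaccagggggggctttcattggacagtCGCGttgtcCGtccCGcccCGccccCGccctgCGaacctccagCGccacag
RefSeq windows of 300 bases (250 before and 50 after the start) were matched to 30 of the 46 members, with 33 windows in all. These windows held many CpG dinucleotides, with a median of 27 against 7 over all 32851 windows. The 4 words CTTTGAA and CTTTGAT and also CTTTGTA and CTTTGTT, to which TCF/LEF factors can bind, were searched on both strands. Of the 33 windows, 15.2% held such a word, against 16.9% of all windows. None of the 6 called members with a window (Axin2, Frzb, Fzd1, Fzd4, Wnt2 and Wnt10b) held one there, which says only that these letters are absent from this stretch.

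**Figure D1:**
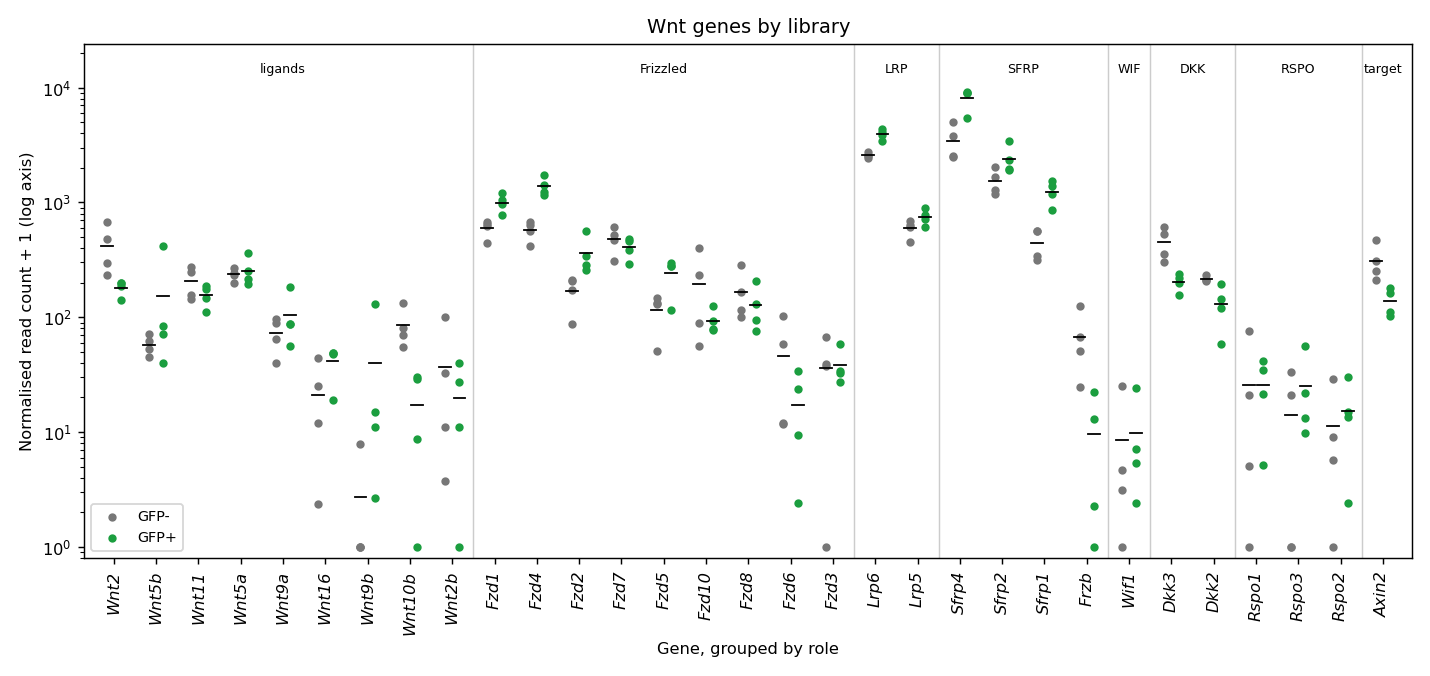
Normalised read count + 1 (log axis) of the 31 reported genes in each of the 4 GFP- (grey) and 4 GFP+ (green) libraries, ordered by role, with the mean as a bar. Sfrp4 stood highest, and both Sfrp1 and Fzd4 had every green point above every grey one, whereas the reverse held for Wnt2, Dkk3 and Axin2.

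The first question was which Wnt ligands these cells transcribe and whether the groups differ. Of 19 ligands, 9 were reported, and among these 2 fell and 0 rose by DESeq2 (edgeR called 1 lower and 0 higher, and 2 were higher at an unadjusted p under 0.05). Wnt2, a ligand known from lung and vascular development, was on average the most abundant ligand per kilobase of exon in both groups. It had 186 ± 87.3 normalised counts per kilobase in GFP- cells and 79.7 ± 11.6 in GFP+ cells (SD, n = 4 each). Normalised counts of Wnt2 (ENSMUSG00000010797, minus strand of chromosome 6, 17988940 to 18030585, GRCm38) were 669, 482, 297 and 232 in GFP- replicates 1 to 4 and 142, 197, 196 and 185 in GFP+ replicates 1 to 4. The GFP- libraries varied widely and yet all lay above the GFP+ libraries. The lowest GFP- value was that of replicate 4, the library with the highest melanocyte sum (70810). From GFP- replicate 1 to replicate 3 Wnt2 and the melanocyte sum (49140, 44620 and 24080) both fell. The part of melanocyte transcripts in the Wnt2 result was not tested. GFP+ cells held 2.36-fold less Wnt2 (log2 fold change -1.24, SE 0.35), and both DESeq2 (adjusted p 0.00698) and edgeR (adjusted p 0.0498) called it. Without GFP- replicate 1 or GFP- replicate 2 the DESeq2 adjusted p of Wnt2 was 0.0584 and 0.0523. Its share of all ligand transcripts per kilobase was 50.6% ± 13.4 in GFP- and 31.3% ± 9.39 in GFP+ cells (SD, n = 4 each).

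Wnt10b, a ligand that restrains the formation of fat cells, fell by 2.30 ± 0.79 (SE) on the log2 scale (ENSMUSG00000022996, minus strand of chromosome 15, 98770712 to 98778150, DESeq2 adjusted p 0.0410). Its normalised counts were 54.3, 69.5, 132 and 79.8 in GFP- replicates 1 to 4 and 0, 28.9, 7.68 and 27.9 in GFP+ replicates 1 to 4. The groups did not overlap, but the value of GFP- replicate 3 rested on 12 reads. The call of Wnt10b was lost in edgeR (adjusted p 0.214) and in 6 other settings. Among these were the DESeq2 fits that left out GFP- replicate 2 (adjusted p 0.106), GFP- replicate 3 (0.132), GFP- replicate 4 (0.141) or, of the other group, GFP+ replicate 3 (0.140).

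The other 7 reported ligands were not called. Wnt5a, the best known ligand of signaling without β-catenin, was nearest to no change among them (log2 fold change 0.09, SE 0.28, DESeq2 adjusted p 0.909). It averaged 235 ± 29.8 normalised counts over GFP- libraries and 254 ± 73.95 over GFP+ libraries (SD, n = 4 each). Its relative Wnt5b had 51.6, 60.9, 43.95 and 70.4 normalised counts in GFP- replicates 1 to 4 and 414, 70.3, 82.97 and 38.6 in GFP+ replicates 1 to 4. Only GFP+ replicate 1 stood apart, and the log2 fold change of Wnt5b, 1.38 with all libraries, was 0.13 without it. In that library Wnt5b made up 43.1% of ligand transcripts per kilobase and Wnt2 17.4%. Wnt9b was likewise highest in GFP+ replicate 1, at 129 normalised counts, with 13.8, 9.99 and 1.68 in GFP+ replicates 2 to 4 and 0, 0, 0 and 6.83 in GFP- replicates 1 to 4. It was not called with all libraries (DESeq2 adjusted p 0.0815), but was called without GFP- replicate 4 (0.0103) or without GFP+ replicate 4 (0.0493). Neither edgeR nor the DESeq2 fit without GFP+ replicate 1 gave an adjusted p for Wnt9b, so the result without its highest library is not known. Wnt9a, Wnt16, Wnt11 and Wnt2b had log2 fold changes of 0.55, 0.92, -0.44 and -0.77, with DESeq2 adjusted p from 0.488 to 0.793. The 10 ligands below the minimum were Wnt1, Wnt3, Wnt3a, Wnt4, Wnt6, Wnt7a, Wnt7b, Wnt8a, Wnt8b and Wnt10a. Differences in these were not detectable at this depth.

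The receptors were compared next. Among 9 reported Frizzled genes 3 rose and 0 fell by DESeq2 (edgeR called 2 higher and 0 lower, and 1 was lower at an unadjusted p under 0.05). Fzd4, the receptor of both Wnt proteins and norrin, rose most among the called Frizzled genes, with 562, 681, 637 and 416 normalised counts in GFP- replicates 1 to 4 and 1229, 1167, 1414 and 1731 in GFP+ replicates 1 to 4. Its highest GFP- library lay well below its lowest GFP+ library. Fzd4 (ENSMUSG00000049791, plus strand of chromosome 7, 89404355 to 89413134) was 2.44-fold higher in GFP+ cells (log2 fold change 1.29, SE 0.22), at an adjusted p of 9.46e-07 in DESeq2 and 0.00288 in edgeR. Fzd1 was on average the most abundant Frizzled gene per kilobase in both groups. It rose from 670, 618, 648 and 443 to 975, 769, 1049 and 1197 normalised counts in replicates 1 to 4 of each group. That is a log2 fold change of 0.76 ± 0.22 (SE) (ENSMUSG00000044674, minus strand of chromosome 5, 4753839 to 4758035, DESeq2 adjusted p 0.0100). Its adjusted p was 0.0560, 0.0578 and 0.0677 in the DESeq2 fits without GFP- replicate 4, GFP+ replicate 3 and GFP+ replicate 4.

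Fzd2 (ENSMUSG00000050288, plus strand of chromosome 11, 102604396 to 102608058), a receptor tied to WNT5A signaling, rose from 86.8, 207, 209 and 171 to 564, 283, 337 and 256 normalised counts in replicates 1 to 4 of each group. The groups did not overlap, with GFP+ replicate 1 the highest library. Its rise of 1.12 on the log2 scale (SE 0.37) passed in DESeq2 (adjusted p 0.0308) and missed in edgeR (adjusted p 0.0955). DESeq2 no longer called Fzd2 once 1 library was left out, be it GFP- replicate 1 (adjusted p 0.0932), GFP- replicate 4 (0.0870), or, on the other side, GFP+ replicate 1 (0.121) or GFP+ replicate 3 (0.0844). A block for the replicate number raised the adjusted p of Fzd2 in DESeq2 to 0.0874.

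Fzd5 was not called (log2 fold change 1.09, DESeq2 adjusted p 0.0903), with 50.2, 130, 132 and 145 normalised counts in GFP- replicates 1 to 4 and 299, 114, 280 and 276 in GFP+ replicates 1 to 4. GFP+ replicate 2 alone fell inside the GFP- range, and without it the DESeq2 adjusted p of Fzd5 was 0.0187. Fzd7, the second most abundant Frizzled gene per kilobase in GFP- cells, had 477 ± 128 and 405 ± 87.1 normalised counts (SD, n = 4 each) and was not called (log2 fold change -0.27, DESeq2 adjusted p 0.623). Its share of Frizzled transcripts per kilobase was 14.9% to 28.0% in GFP- and 11.1% to 13.7% in GFP+ libraries, while that of Fzd4 was 15.1% to 20.8% and 24.1% to 31.6%. Fzd10 had a log2 fold change of -1.10 and spread from 55.7 to 399 normalised counts over the GFP- libraries. Without GFP- replicate 4 the DESeq2 adjusted p of Fzd10 went from 0.229 to 0.0429. Fzd3, Fzd6 and Fzd8 had log2 fold changes of 0.17, -1.51 and -0.39 (DESeq2 adjusted p from 0.379 to 0.951), and Fzd9 lay below the minimum.

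Lrp6, the co-receptor that passes the Wnt signal on to β-catenin, rose, with 2522, 2445, 2582 and 2726 normalised counts in GFP- replicates 1 to 4 and 3442, 3875, 4102 and 4394 in GFP+ replicates 1 to 4. Its spread within groups was small and the groups did not overlap. Lrp6 (ENSMUSG00000030201, minus strand of chromosome 6, 134446476 to 134566965) was 1.54-fold higher in GFP+ cells (log2 fold change 0.62, SE 0.13), at an adjusted p of 1.58e-04 in DESeq2 and 0.0174 in edgeR. Lrp5 had 595 ± 101 and 753 ± 122 normalised counts (SD, n = 4 each) and was not called (log2 fold change 0.31, DESeq2 adjusted p 0.407). Whether the change of Lrp6 differed from that of Lrp5 was not tested.

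Sfrp4 and Sfrp2 had the highest levels per kilobase of all members in both groups. Of 4 reported SFRP genes 2 rose and 1 fell. Sfrp4, which binds Wnt proteins through a Frizzled-like domain, was on average the most abundant member per kilobase in both groups. In replicate 4 of each group Sfrp2 stood above it. Sfrp4 had 826 ± 284 normalised counts per kilobase in GFP- cells and 1947 ± 431 in GFP+ cells (SD, n = 4 each). Its normalised counts were 2518, 2510, 4988 and 3794 in GFP- replicates 1 to 4 and 8976, 8896, 9227 and 5443 in GFP+ replicates 1 to 4. The groups came closest between GFP- replicate 3 and GFP+ replicate 4 and did not overlap. Sfrp4 (ENSMUSG00000021319, plus strand of chromosome 13, 19623104 to 19632994) was 2.37-fold higher in GFP+ cells (log2 fold change 1.24, SE 0.27), at an adjusted p of 1.54e-04 in DESeq2 and 0.00898 in edgeR.

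Sfrp1 showed the largest rise among called members. Its normalised counts were 313, 341, 560 and 560 in GFP- replicates 1 to 4 and 1387, 855, 1177 and 1527 in GFP+ replicates 1 to 4. All GFP+ libraries lay above all GFP- libraries, and the difference was 2.83-fold (log2 fold change 1.501, SE 0.28, ENSMUSG00000031548, plus strand of chromosome 8, 23411502 to 23449632, DESeq2 adjusted p 4.23e-06, edgeR adjusted p 0.00348). Sfrp2 was on average the second most abundant member per kilobase. It had 1186, 1276, 1681 and 2054 normalised counts in GFP- replicates 1 to 4 and 1909, 2327, 1936 and 3460 in GFP+ replicates 1 to 4. Here GFP- replicate 4 overlapped the GFP+ libraries. Sfrp2 was not called in the fit on group alone (log2 fold change 0.64 ± 0.26 (SE), DESeq2 adjusted p 0.108). It passed once GFP- replicate 4 was left out (DESeq2 adjusted p 0.0278), and a block for the replicate number likewise brought it past the threshold (DESeq2 adjusted p 0.00427).

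Frzb, an SFRP family gene first known from cartilage, moved the other way. Its normalised counts were 125, 23.7, 65.9 and 49.4 in GFP- replicates 1 to 4 and 0, 1.26, 21.5 and 12.1 in GFP+ replicates 1 to 4. The lowest GFP- library lay just above the highest GFP+ library. Frzb (ENSMUSG00000027004, minus strand of chromosome 2, 80411970 to 80447625) fell by 2.90 on the log2 scale (SE 0.97), a call in DESeq2 (adjusted p 0.0337) and not in edgeR (adjusted p 0.181). Its DESeq2 call was lost when 1 library was left out, namely GFP- replicate 1 (adjusted p 0.195), GFP- replicate 3 (0.0667), GFP- replicate 4 (0.0921), and from the other group GFP+ replicate 2 (0.0797) or GFP+ replicate 4 (0.0560). Sfrp5 lay below the minimum.

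Summed over the family per kilobase, SFRP transcripts ranged from 1266 to 2123 normalised counts per kilobase in GFP- and from 3263 to 3406 in GFP+ libraries. The groups did not overlap and the GFP+ range was narrow. Most of the sum was Sfrp4 (on average 48.9% in GFP- and 57.9% in GFP+ libraries) and Sfrp2 (43.5% and 33.5%). GFP+ replicate 4 had the lowest Sfrp4 and the highest Sfrp2 of its group. Ligand sums ranged from 281.5 to 457 and from 229 to 362, with overlap. The ratio of the SFRP sum to the ligand sum was 2.77, 3.54, 6.81 and 7.14 in GFP- replicates 1 to 4 and 9.29, 13.5, 14.6 and 14.2 in GFP+ replicates 1 to 4. Every GFP+ library thus had more SFRP transcript per ligand transcript than every GFP- library. No test was made of this ratio, whose sums cover all 19 ligands and all 5 SFRP genes, those below the minimum included. Stromal marker sums were likewise higher in every GFP+ library than in every GFP- library, and their part in the rises of SFRP and receptor genes was not tested.

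**Figure D2:**
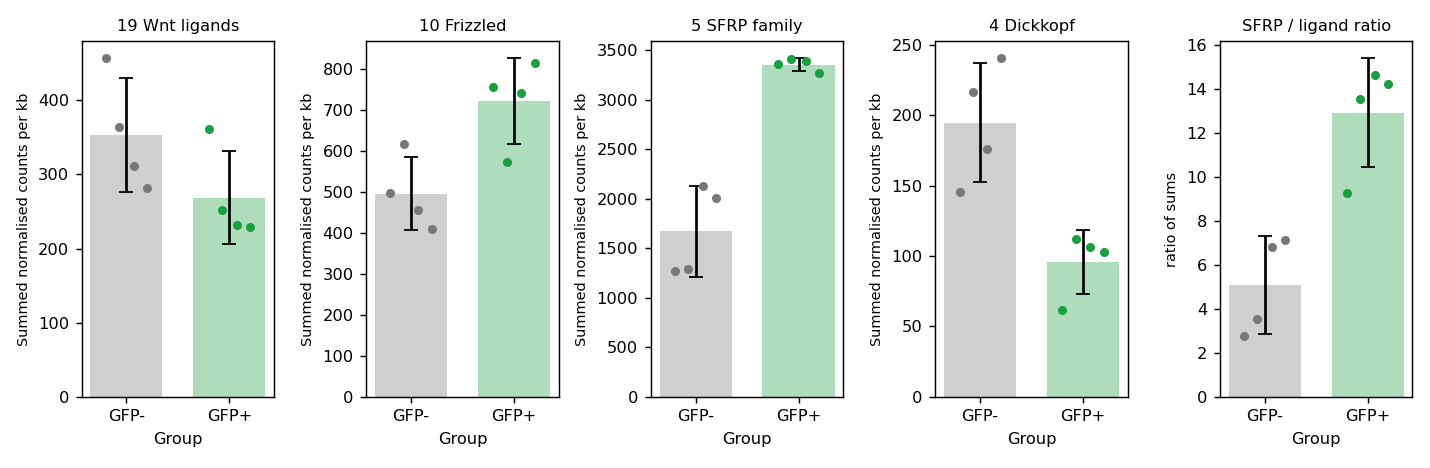
Normalised counts per kilobase of exon summed over each family, and the ratio of the SFRP sum to the ligand sum, in 4 GFP- (grey) and 4 GFP+ (green) libraries (points), with the mean (bar) and SD (line). SFRP sums of 3263 to 3406 in GFP+ libraries stood above the 1266 to 2123 of GFP- libraries, and the ligand sums overlapped.

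Of the other inhibitors, 1 of 2 reported Dickkopf genes fell. Dkk3, a family member whose part in Wnt signaling is unsettled, had 301, 532, 352 and 615 normalised counts in GFP- replicates 1 to 4 and 156, 198, 221 and 236 in GFP+ replicates 1 to 4. The groups did not overlap. Dkk3 (ENSMUSG00000030772, minus strand of chromosome 7, 112116017 to 112159057) was 2.25-fold lower in GFP+ cells (log2 fold change -1.17, SE 0.29), at an adjusted p of 0.00172 in DESeq2 and 0.0311 in edgeR. In both groups Dkk3 was highest in replicate 4, the library with the highest melanocyte sum. The other libraries did not follow the order of that sum. Melanocyte sums were 49140, 44620, 24080 and 70810 in GFP- replicates 1 to 4 and 4509, 7188, 4505 and 11210 in GFP+ replicates 1 to 4. The part of melanocyte transcripts in the Dkk3 result was not tested. Dkk2 had 208, 209, 231 and 213 normalised counts in GFP- replicates 1 to 4 and 56.9, 195, 144 and 119 in GFP+ replicates 1 to 4. These groups did not overlap either, yet Dkk2 was not called (log2 fold change -0.72 ± 0.37 (SE), DESeq2 adjusted p 0.241). Dkk1 and Dkk4 lay below the minimum. Wif1 had 24.4, 2.15, 0 and 3.68 normalised counts in GFP- replicates 1 to 4 and 1.39, 23.4, 6.15 and 4.36 in GFP+ replicates 1 to 4, with 1 high library in each group and no call (log2 fold change 0.12, DESeq2 adjusted p 0.980).

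The R-spondins were sparse. Rspo1 had 4.07, 20.1, 0 and 75.6 normalised counts in GFP- replicates 1 to 4 and 4.17, 20.5, 33.8 and 40.9 in GFP+ replicates 1 to 4. Rspo1, Rspo2 and Rspo3 had log2 fold changes of -0.11, 0.32 and 0.73 with SE from 1.04 to 1.17, and neither DESeq2 nor edgeR called any of the 3, nor was any at an unadjusted p under 0.05. Differences in them could not be resolved with SE this large, and Rspo4 lay below the minimum.

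Axin2, a scaffold of the complex that destroys β-catenin and a widely used readout of β-catenin activity, had 307, 252, 209 and 471 normalised counts in GFP- replicates 1 to 4 and 101, 177, 111 and 161 in GFP+ replicates 1 to 4. Each GFP- library was higher than each GFP+ library. Axin2 (ENSMUSG00000000142, plus strand of chromosome 11, 108920349 to 108950783) was 2.28-fold lower in GFP+ cells (log2 fold change -1.19, SE 0.33), a call in DESeq2 (adjusted p 0.00713) and not in edgeR (adjusted p 0.0603). Without GFP- replicate 4 its log2 fold change was -0.91 (DESeq2 adjusted p 0.100), and without GFP+ replicate 3 it was -1.09 (DESeq2 adjusted p 0.0506), so the call was lost while the direction stayed. The sums of melanocyte markers were 49140, 44620, 24080 and 70810 in GFP- replicates 1 to 4, in the same order as Axin2. They were 4509, 7188, 4505 and 11210 in GFP+ replicates 1 to 4. There replicates 2 and 4 were highest in both, Axin2 in replicate 2 and the melanocyte sum in replicate 4. The part of melanocyte transcripts in the Axin2 result was not tested.

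**Figure D3:**
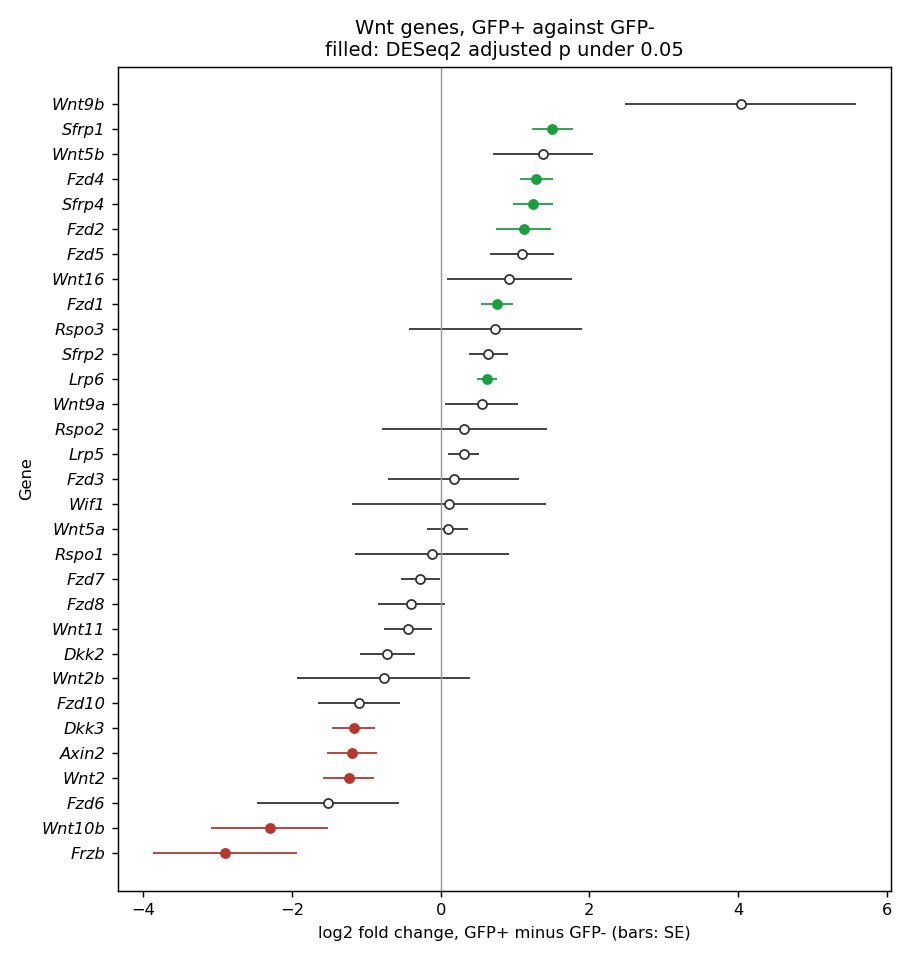
log2 fold change (GFP+ minus GFP-) of the 31 reported genes with SE as a line. Filled points passed a DESeq2 adjusted p under 0.05, 6 higher (green) and 5 lower (red), and the open point of Wnt9b at 4.03 has the widest line.

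The rest of the pathway was compared through 64 further genes, in lists for secretion, receptors that act without β-catenin, R-spondin receptors, extracellular modulators, cytoplasmic and nuclear transduction and target genes. Of the 57 that reached the minimum mean, 4 rose (7.02%) and 2 fell (3.51%), shares near the 4.73% and 4.71% of all genes at that mean. Their median log2 fold change was 0.09. The count of 4 higher genes was 2 when replicate 1 of either group, or GFP+ replicate 3, was left out. The count of 2 lower genes was 0 without replicate 2 of either group, 1 without GFP- replicate 4 or GFP+ replicate 3, and 5 without GFP+ replicate 4.

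Among receptors and polarity proteins that act without β-catenin, 2 of 11 rose and 1 fell. Prickle2, a cytoplasmic planar polarity protein, rose from 541, 835, 945 and 760 to 1590, 1230, 1286 and 1472 normalised counts in replicates 1 to 4 of each group. Its groups did not overlap (log2 fold change 0.88, SE 0.21, DESeq2 adjusted p 8.04e-04, edgeR adjusted p 0.0174). Ryk, a Wnt receptor related to tyrosine kinases, had 422, 552.5, 527 and 414 normalised counts in GFP- replicates 1 to 4 and 780, 603, 758 and 728 in GFP+ replicates 1 to 4. It rose by 0.60 on the log2 scale (SE 0.19, DESeq2 adjusted p 0.0259, edgeR adjusted p 0.0911), and lost its DESeq2 call in 5 of the 8 fits that left out 1 library. Those without GFP- replicate 1, GFP- replicate 4, GFP+ replicate 1, GFP+ replicate 3 and GFP+ replicate 4 gave adjusted p of 0.117, 0.138, 0.0804, 0.127 and 0.104 in DESeq2, and the fit with the replicate block gave 0.0794. Celsr2, a polarity cadherin, had 22.0 to 117 normalised counts in GFP- and 1.39 to 20.7 in GFP+ libraries, and fell by 2.43 on the log2 scale (SE 0.74, DESeq2 adjusted p 0.0168, edgeR adjusted p 0.141). Its DESeq2 adjusted p was 0.0862, 0.204 and 0.0734 without GFP- replicate 2, GFP- replicate 4 and GFP+ replicate 2.

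Among 8 reported extracellular modulators 1 rose. This was the glypican gene Gpc3, whose protein holds Wnt and other factors at the cell surface. It had 4264 to 5527 normalised counts in GFP- and 6243 to 8931 in GFP+ libraries (log2 fold change 0.66, SE 0.17, DESeq2 adjusted p 0.00203, edgeR adjusted p 0.0258). The other glypican genes of the list, Gpc4 and Gpc6, were not called (log2 fold change 0.76 and -0.70, DESeq2 adjusted p 0.0684 and 0.0823). Of 13 cytoplasmic genes 1 fell, Ctnnb1, the gene of β-catenin itself. It had 5229, 5353, 4175 and 6471 normalised counts in GFP- replicates 1 to 4 and 3710, 3636, 3520 and 3812 in GFP+ replicates 1 to 4. The GFP+ libraries lay close together and all below the GFP- libraries (log2 fold change -0.54, SE 0.16, DESeq2 adjusted p 0.0129, edgeR adjusted p 0.0668). Without GFP- replicate 2, GFP- replicate 4, GFP+ replicate 2 and GFP+ replicate 3 the DESeq2 adjusted p of Ctnnb1 was 0.0586, 0.0598, 0.0525 and 0.0805. In both groups replicate 4 had the highest count of Ctnnb1 and the highest melanocyte sum. The part of melanocyte transcripts in this result was not tested. Among 13 nuclear factors, 5 R-spondin receptors and ligases and 2 secretion genes, DESeq2 and edgeR both called 0, and 0 had an unadjusted p under 0.05.

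Beside Axin2, which fell, the target list had 11 reported genes with a median log2 fold change of -0.0043. Of these 1 was called, and it rose: Myc, a growth regulator with many inputs other than β-catenin, had 1703 to 2582 normalised counts in GFP- and 2843 to 4391 in GFP+ libraries (log2 fold change 0.69, SE 0.21, DESeq2 adjusted p 0.0175, edgeR adjusted p 0.0482). Without GFP- replicate 1, GFP- replicate 2, GFP+ replicate 1 and GFP+ replicate 3 the DESeq2 adjusted p of Myc was 0.0724, 0.0559, 0.0545 and 0.107. DESeq2 and edgeR called 0 of the 11 lower, although 2 were lower at an unadjusted p under 0.05. These were Ccnd1 (log2 fold change -0.94, SE 0.35, DESeq2 adjusted p 0.0645) and Tnfrsf19 (log2 fold change -2.64, SE 0.98, DESeq2 adjusted p 0.0660). The groups overlapped for Ccnd1 and not for Tnfrsf19.

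**Figure D4:**
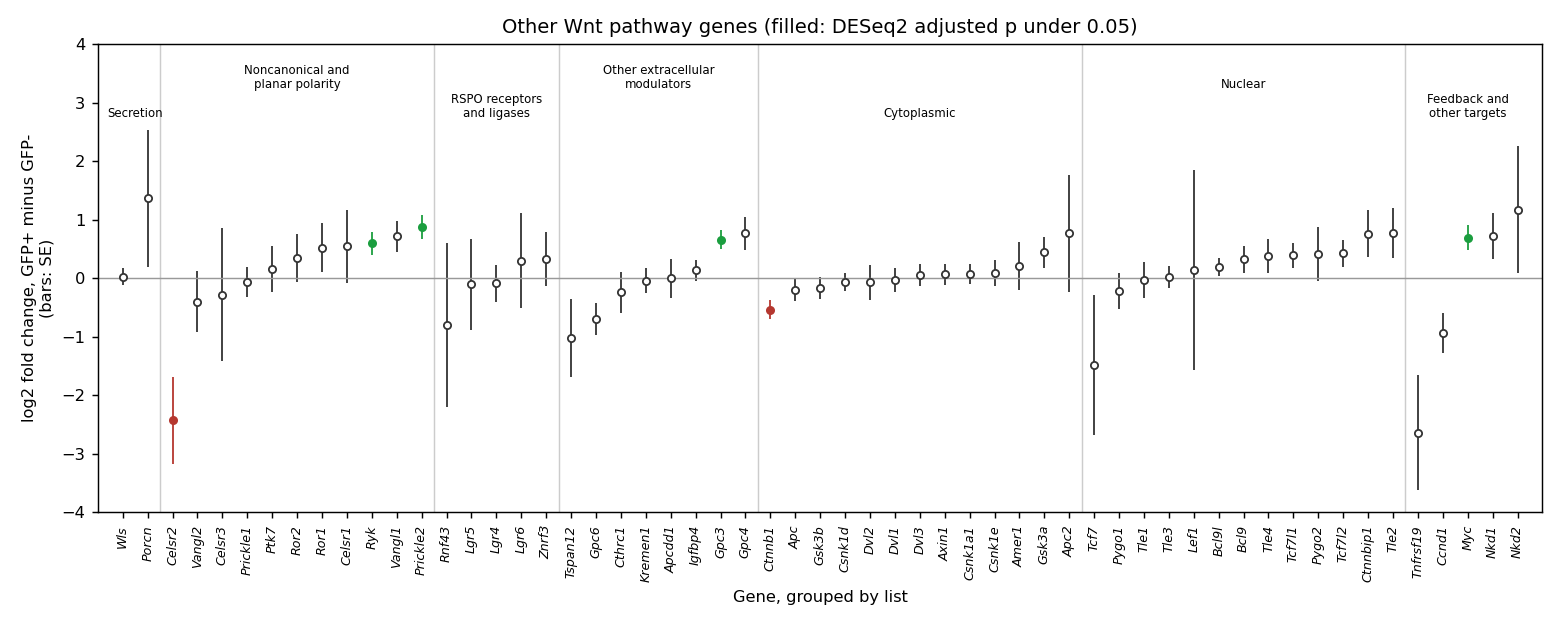
log2 fold change (GFP+ minus GFP-) with SE of the 57 other pathway genes that reached the minimum mean, grouped by list, genes of several lists drawn once. Filled points passed a DESeq2 adjusted p under 0.05: Prickle2, Ryk, Gpc3 and Myc higher, Celsr2 and Ctnnb1 lower.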

How the data were processed

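RNA-seq was available for 4 GFP+ and 4 GFP- libraries, grouped by their titles. The authors deposited whole-number counts of reads per gene and library, which were used here, and a score per gene and library (the count divided by a DESeq2 size factor and rounded), which was not used, nor were the deposited comparison columns (fold changes, p-values). Per the submitters' notes and the study's methods, adapters were trimmed with cutadapt 3.4, reads mapped to GRCm38 with STAR 2.7.3a and assigned to Ensembl genes with featureCounts 2.0.1 using strand. How reads mapping to several genes were treated is not given in the sources used here.

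The 29043 genes with a count were fitted in R 4.3.3 with DESeq2 1.42.0 (group term, default settings, two-sided Wald test, Benjamini-Hochberg adjustment over all genes), and 15283 received an adjusted p. Members under a mean of 10 raw counts were in the fit but received no adjusted p, and their differences are not reported. Coordinates and exon lengths came from GENCODE M21 (GRCm38), which held all 46 members. edgeR 4.0.16 and 13 other settings were run. The code was tested on simulated data. No batch is labelled. Replicate libraries differed beyond counting error (chi-square per degree of freedom 13.4 to 123). Members, gene lists and tests were chosen with earlier results of these data known. Values were given in each library for members called, members without overlap and the most abundant member of each role, and for Wnt5b, Wnt9b, Fzd5 and Sfrp2, chosen after their values were seen. Among the other pathway genes those called were named, and also Ccnd1, Tnfrsf19, Gpc4 and Gpc6, chosen after their values were seen.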

Additional observations from a re-analysis of the deposited data

Results flagged for a closer look

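The 31 reported genes were each examined in both groups. In 8 cases 1 library of a group of 4 stood apart from the other three by Dixon's test, which flags about 1 in 20 groups by chance. GFP+ replicate 1 was the highest of its group for Wnt5b (414 normalised counts, next 82.97) and Wnt9b (129, next 13.8) and the lowest for Wnt16 (18.1, next 46.9). GFP- replicate 4 was the only GFP- library with Wnt9b (6.83), and with the other three tied at 0 any value above 0 would have stood apart. Fzd5 was low in GFP- replicate 1 (50.2, next 130) and in GFP+ replicate 2 (114, next 276). Sfrp4 was low in GFP+ replicate 4 (5443, next 8896), and Wif1 was high in GFP- replicate 1 (24.4, next 3.68).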

How the results depend on the processing

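In 14 alternatives (edgeR, DESeq2 with TMM factors or without its independent or Cook's distance filter, a block for the replicate number, only genes averaging 10 or more raw counts, and each of 8 libraries left out) 5 of the 11 called genes kept their call (Fzd4, Lrp6, Sfrp4, Sfrp1 and Dkk3), 6 lost it in some and 0 changed direction. The count of 6 higher genes ran from 4 to 7. The count of 5 lower genes was 2 in edgeR, 3 without independent filtering and 3 to 5 with single libraries left out. Other pathway genes higher (4) ran from 2 to 4 with single libraries left out, and those lower (2) from 0 to 5, with 0 in edgeR. Among the named ones Prickle2 and Gpc3 kept their call in all 14, and Ryk also lost it with the replicate block.

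Uncalled genes changed sign in 8 cases. Over the fits that left out 1 library the log2 fold change ran from -0.13 to 0.21 for Wnt5a, -1.41 to 0.36 for Wnt2b, -0.71 to 0.0495 for Fzd8, -0.20 to 0.55 for Fzd3, -0.23 to 0.45 for Wif1, -0.50 to 1.35 for Rspo1, -0.037 to 1.58 for Rspo3 and -0.27 to 1.44 for Rspo2. The cause was not tested. An adjusted p came from 12 of the 14 alternatives for Wnt9b and from 9 for Wif1, and only those were counted. Whether same-numbered libraries share a tumor is not given in the sources used here. The correlations of their deviations ran from -0.158 to 0.262, not above 0.1 in every pair, so the fit without a block was kept, and pairing was not excluded. With the replicate block 6 members were higher and 5 lower, and 3 other pathway genes higher and 3 lower; Fzd2 lost its call (DESeq2 adjusted p 0.0874), Sfrp2 was called (0.00427) and Rspo1 went to 0.28. Genes with few reads, above all in GFP- replicate 3, are limited by depth.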
